A study of Mus musculus with 4 samples.

Results

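Interferon-stimulated genes were followed in single mouse brain vascular cells from animals fed with or without PLX5622. The 31 members were taken by gene symbol from a list of genes that type I interferon induces. Members and the other gene lists were chosen with earlier results of these data known. Their counts and medians beside all genes or between lists are therefore descriptions and no independent support. Rows for 30 of them were found among the 32285 genes of the count matrices, and Mx1 was not analysed here. Cells positive for CD31, an adhesion molecule that endothelium carries, were sorted from brains of C57BL6 mice, without meninges, cerebellum and olfactory bulbs, and were sequenced with 10x Genomics 3′ v3.1 libraries. The control group ate a control diet and the other group ate PLX5622 at 1200 ppm, each for 1 month. Neither age nor sex of the mice is given in the sources used here. PLX5622 is an inhibitor of CSF1R, the receptor that microglia need to survive. Each diet has 2 libraries. Per the labels 3 mice served 2 libraries, read here as those of 1 diet, so how animals were divided is not known and 1 mouse may be in both. The p-values of the diet tests therefore measure only the spread between libraries, which may be technical. Tests that compare cell classes, or diet differences between them, hold the library as a block. Their p-values measure the spread left between class sums of the same libraries, which are not further animals.

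Type I interferons bind the receptor IFNAR1/IFNAR2, whose kinases start a signalling cascade. A complex that holds STAT2 and IRF9 then enters the nucleus and binds interferon-stimulated response elements in the promoters of target genes. The targets restrict viruses, and several of them (Stat2, Irf9 and Irf7 here) are parts of the pathway itself. Brain endothelial cells carry the receptor and face interferons from both blood and brain, and a low tonic level of these transcripts is found in many tissues without infection.

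The libraries held 11186648, 38600208, 19044018 and 26949278 unique molecular identifiers (UMIs, each a counted transcript molecule) in control diet 1, control diet 2, PLX5622 diet 1 and PLX5622 diet 2. Cells were kept from 1000 UMIs and 500 genes upward if mitochondrial UMIs made up no more than 10%, and numbered 1696, 5509, 3989 and 3670. Any pair of libraries shared between 1 and 6 cell barcodes. Median depth was lowest in PLX5622 diet 1 (3834 UMIs per cell) and highest in PLX5622 diet 2 (5921.5). Clusters were named from markers, with every member gene and its pathway kept out of the clustering, which gave 12945 endothelial-like cells (8589 capillary-like, 2479 arterial-like and 1877 venous-like), 300 pericyte-like cells and 227 smooth muscle-like cells. Levels are given as CPM, a gene's UMIs scaled to the same total of UMIs in each library's cell class. The 8 endothelial markers summed to 19662 to 20220 CPM in endothelial-like cells of each library, and all 8 were detected. Counts were summed per library and cell class before any test. CPM is not divided by gene length, because a 3′ library counts transcript ends, and levels are compared between libraries or cell classes and not between genes.

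In endothelial-like cells, 5 of the 30 members were higher on PLX5622 and none was lower (edgeR quasi-likelihood test on library sums, Benjamini-Hochberg adjusted p under 0.05 over 12749 genes; a gene that passes is called). Over all genes tested, 0.777% were called higher and 0.298% lower. The 5 were Isg15, Bst2, Ifi44, Ifit1 and Usp18. All 30 log2 fold changes were above 0, with a median of 0.34, beside 51% of all tested genes above 0 and a median of 0.0043. At an unadjusted p under 0.05, 21 members were higher and 0 lower, beside 5.54% and 5% of all genes, and without PLX5622 diet 2 the count was 11. The summed level of the members was 3215 and 3377 CPM in the control libraries and 3905 and 4410 CPM in the PLX5622 libraries, a ratio of means of 1.26 (control 3296 ± 114, PLX5622 4158 ± 357, SD, n = 2 libraries each).

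Isg15 encodes a ubiquitin-like protein that is joined to other proteins or secreted. It stood at 186 and 229 CPM in control diet 1 and 2 and at 292 and 359 CPM in PLX5622 diet 1 and 2, and the groups did not overlap. Its log2 fold change was 0.68 ± 0.13 (SE, adjusted p = 0.0127, edgeR). SE here and below is the absolute log2 fold change over the square root of the edgeR F statistic. That test reports no standard error of its own. Usp18, the protease that removes Isg15 and restrains receptor signalling, was at 50.5, 53.2, 65.7 and 71.1 CPM in the same order (log2 0.43 ± 0.10, edgeR adjusted p = 0.0328). The Usp18 call was lost in DESeq2, with library totals, with a limit of 5% mitochondrial UMIs and on leaving out any library other than PLX5622 diet 1 (adjusted p from 0.0550 to 0.261). Ube2l6, the enzyme that passes Isg15 on to its targets, was at 31.2, 26.7, 29.5 and 30.7 CPM. Its groups overlapped, so of the 3 genes of the Isg15 system 2 were higher and 1 did not pass (log2 0.12 ± 0.10).

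Bst2, or tetherin, holds budding viruses at the cell surface. Its level was 190 and 214 CPM in the controls and 263 and 315 CPM on PLX5622, without overlap (log2 0.56 ± 0.12, edgeR adjusted p = 0.0246). Ifitm3, which blocks virus entry from endosomes, was at 928, 1108, 1292 and 1325 CPM. The PLX5622 libraries were again the higher ones, but the difference did not pass over all endothelial-like cells (log2 0.40 ± 0.14, edgeR adjusted p = 0.26). Rtp4, a chaperone that traffics membrane receptors, was at 75.4, 77.1, 91.8 and 98.9 CPM and did not pass (adjusted p = 0.0819, edgeR).

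Among effectors that act on RNA, Ifit1, which binds RNA with foreign 5′ ends, was at 136 and 139 CPM in the controls and 171 and 200 CPM on PLX5622 (log2 0.48 ± 0.10, edgeR adjusted p = 0.0299). It was the 1 of 7 in this role to pass. The other 6 (Ifit2, Ifit3, Ifit3b, Oas1a, Oasl2 and Eif2ak2) had log2 fold changes between 0.27 and 0.60. Ifit3 went from 83.8 and 93.5 CPM to 104 and 141 CPM, and Ifit3b from 25.2 and 29.9 to 33.6 and 48.6 CPM. Ifit3 and Ifit3b are near-identical neighbours, so reads could be divided between them and their separate levels are uncertain. For both, PLX5622 diet 1 lay closer to the controls than PLX5622 diet 2 did.

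Ifi44, a cytosolic interferon-induced protein, was at 35.6 and 39.2 CPM in the controls and at 52.7 and 52.9 CPM on PLX5622 (log2 0.52 ± 0.10, edgeR adjusted p = 0.0106). Its 2 PLX5622 libraries were nearly equal. The signalling factors Stat2, Irf9 and Irf7 had log2 fold changes of 0.31, 0.28 and 0.43, and none of the 3 passed. Irf7, which drives later interferon genes, was at 76.1, 92.6, 96.8 and 125 CPM, so PLX5622 diet 1 was close to control diet 2. Stat2 was at 55.9, 44.8, 59.3 and 59.9 CPM and Irf9, its DNA-binding partner, at 88.1, 82.2, 100.35 and 100.48 CPM. Both had nearly equal PLX5622 libraries above the controls. The RNA sensors Ddx58 (RIG-I) and Ifih1 and their relative Dhx58 (LGP2) did not pass either, with log2 fold changes of 0.21, 0.04 and 0.28.

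Of the remaining members none passed. Ifit2, which binds RNA and can promote cell death, was at 27.2, 26.6, 28.9 and 48.3 CPM, so that PLX5622 diet 2 alone stood apart (log2 0.57 ± 0.26). Oas1a was at 19.5, 19.7, 23.6 and 29.0 CPM (log2 0.46 ± 0.12, edgeR adjusted p = 0.0867). Eif2ak2 (PKR), the kinase that halts translation on binding double-stranded RNA, was at 47.9, 48.7, 52.6 and 60.9 CPM. Both PLX5622 libraries were the higher ones for each of these 3 genes. Cmpk2, a mitochondrial nucleotide kinase beside Rsad2, was at 65.1, 62.3, 73.2 and 69.997 CPM, and Parp14, an ADP-ribosyltransferase, at 58.3, 57.9, 68.5 and 76.4 CPM. Ifi35 was at 78.6, 89.5, 92.2 and 107 CPM and the TRIM family gene Trim30a at 54.9, 54.2, 57.995 and 63.9 CPM. All 4 had both PLX5622 libraries above both controls, with log2 fold changes of 0.20 to 0.36.

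Other members had overlapping diet groups. Rsad2 (viperin), an enzyme that makes a chain-terminating nucleotide, was at 148, 120, 117 and 147 CPM, so that each diet had 1 high and 1 low library (log2 0.04 ± 0.11). The guanylate-binding protein Gbp3 was at 140, 111, 124 and 138 CPM, and Gbp2 was at 96.1, 78.2, 79.4 and 96.7 CPM. Sp100, a nuclear body protein, had its highest level in a control library (176, 142, 152 and 165 CPM, log2 0.05 ± 0.10). Their diet groups overlapped in every case. Ifih1 (MDA5), a sensor of long double-stranded RNA, was at 62.2, 57.7, 56.0 and 63.3 CPM with the same overlap.

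**Figure D1:**
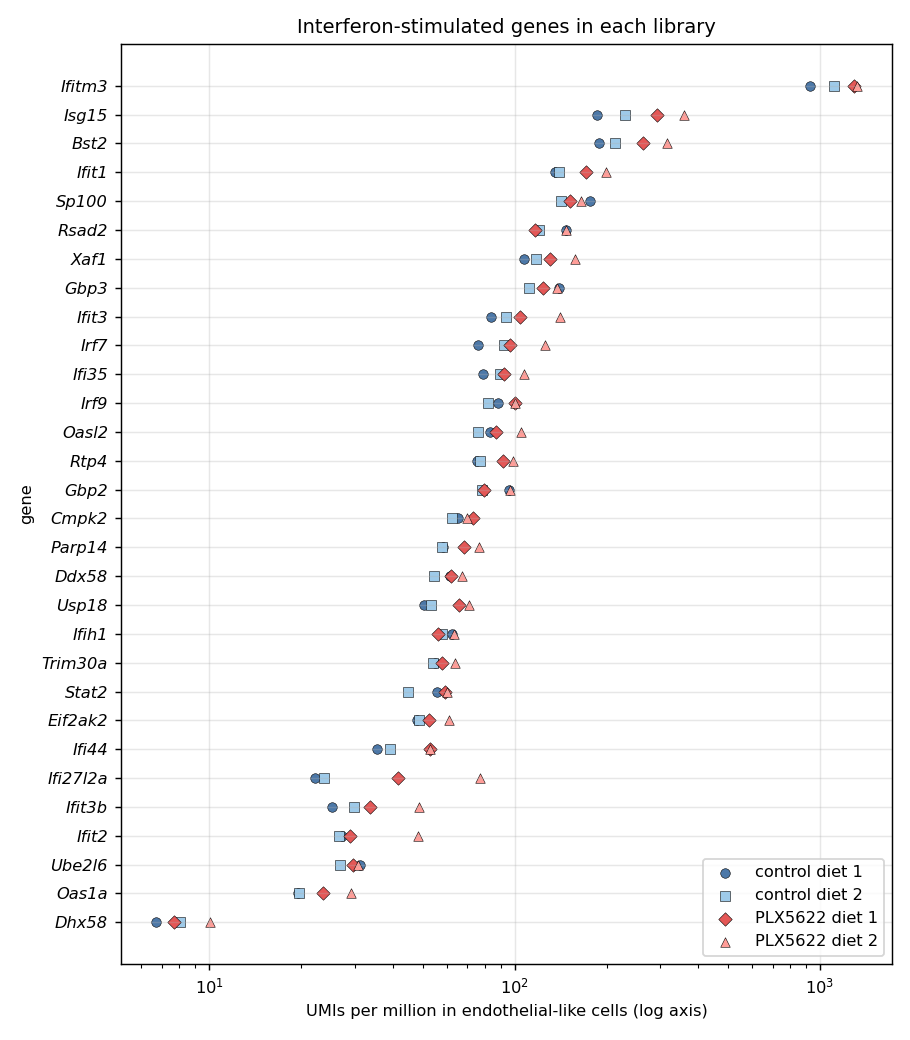
Level of the 30 members in endothelial-like cells of each library, in CPM on a log axis, with circles and squares for the control libraries and diamonds and triangles for the PLX5622 libraries. The triangle of PLX5622 diet 2 is the rightmost point for 25 of 30 genes.

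The libraries of a diet also differed from each other. Both PLX5622 libraries were above both controls for 23 of 30 members, beside 15.3% of the 12667 genes with at least 40 UMIs (25.6% of those genes had both PLX5622 libraries below). No member had both PLX5622 libraries below. PLX5622 diet 2 exceeded PLX5622 diet 1 for 29 of 30 members and was the highest library for 25. The lowest library was control diet 1 for 16 members, control diet 2 for 12 and PLX5622 diet 1 for 2. The median absolute log2 difference was 0.15 between the control libraries and 0.21 between the PLX5622 libraries, and the median log2 difference between diet means was 0.29. For 19 members the gap between diets was larger than the spread within each diet. No share over all genes was taken for this count or for those of the highest, the lowest and the higher PLX5622 library. They therefore do not show a trait particular to the members.

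Ifi27l2a, a small mitochondrial protein gene, had the widest ratio between the PLX5622 libraries. It was at 22.2 and 23.9 CPM in the controls, 41.5 CPM in PLX5622 diet 1 and 76.8 CPM in PLX5622 diet 2. Both PLX5622 libraries were higher, but they lay further from each other than PLX5622 diet 1 lay from the controls, and the log2 fold change of 1.39 ± 0.43 did not pass (edgeR adjusted p = 0.516). Xaf1, a cell death regulator, was at 108, 117, 130 and 158 CPM and did not pass (edgeR adjusted p = 0.111).

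The number of members called depended on single libraries. Without control diet 1 it was 0, without control diet 2 it was 4 (3 of them among the 5), without PLX5622 diet 1 it was 12 (all 5 among them) and without PLX5622 diet 2 it was 2 (Ifi44 of the 5, and Ifi27l2a). The log2 fold changes of the 5 genes stayed above 0 in each of these fits. Calls over all genes in the same fits are not given here, so how far the counts are particular to the members is not shown. Control diet 1 held 1492 of the endothelial-like cells, the fewest of the 4 libraries, and its TMM factor of 1.05 stood apart from the others (0.983 to 0.985).

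To show what the members called on PLX5622 and those not called share in sequence, RefSeq promoter windows of GRCm38.p6 (250 bases before to 50 after a start) were searched on both strands for the core of the interferon-stimulated response element, which is GAAA, any 2 bases and GAAA again. A window was found for 25 members, and 15 of them held the core, beside 3.99% of 27025 genes. The STAT dimer site (TTC, any 3 bases, GAA) was in 6 of the 25, beside 9.55% of genes. Of the 13 members called higher in endothelial-like cells or in a zone, 11 had a window and 7 held the core. Of the 17 not called, 14 had a window and 8 held it. Examples of both kinds follow, 5′ to 3′ along the gene's own strand, with the cores in capitals on whichever strand they lie (TTTC, 2 bases and TTTC is the reverse complement).
Isg15, chr4:156200850-156200921, minus strand: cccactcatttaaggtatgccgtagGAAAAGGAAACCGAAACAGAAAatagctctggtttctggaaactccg
Bst2, chr8:71537562-71537627, minus strand: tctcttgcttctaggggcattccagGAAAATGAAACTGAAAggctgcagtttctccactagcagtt
Ifit1, chr19:34640760-34640838, plus strand: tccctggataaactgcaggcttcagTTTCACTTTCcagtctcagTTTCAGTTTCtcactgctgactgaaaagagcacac
Ifit3, chr19:34583348-34583441, plus strand: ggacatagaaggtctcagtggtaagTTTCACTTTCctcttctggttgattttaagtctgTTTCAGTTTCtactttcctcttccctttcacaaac
Stat2, chr10:128270251-128270310, plus strand: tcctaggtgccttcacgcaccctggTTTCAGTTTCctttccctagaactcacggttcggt
Rsad2, chr12:26456538-26456597, minus strand: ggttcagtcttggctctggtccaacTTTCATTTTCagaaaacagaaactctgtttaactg
Gbp2, chr3:142620579-142620638, plus strand: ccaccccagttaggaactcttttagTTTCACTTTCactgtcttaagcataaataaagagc

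All 7 stretches lie upstream of the start on which the RefSeq window is built. Isg15 has 3 overlapping cores, Bst2 has 2 overlapping cores, and Ifit1 and Ifit3 have 2 separate cores each. The stretch of Ifit3b, chr19:34607744-34607837, is letter for letter that of Ifit3. Stat2, Rsad2 and Gbp2 have 1 core each. Rsad2 and Gbp2, whose diet groups overlapped, thus carry the same letters as genes that were called. A match is a description of the sequence and not a measured binding site, and windows without a match (Irf7, Oasl2, Xaf1 and Ifi44 among those called) say only that these letters are absent from those bases.

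Arterial-like cells held the highest levels of most members. Against capillary-like cells of the same libraries, 17 of 30 members were higher and 1, Ifi35, was lower (edgeR with the library as a block, beside 15.1% higher and 13.4% lower of 11522 genes). Against venous-like cells, 21 were lower in the venous-like cells and 0 higher (16.6% and 16.2% of all genes). Between venous-like and capillary-like cells 10 were lower and 0 higher (11% and 11.3% of all genes). The summed member level in the control libraries was 3957 and 4264 CPM in arterial-like, 3073 and 3233 CPM in capillary-like and 2791 and 2884 CPM in venous-like cells.

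Irf7 showed a graded pattern, with 118, 136, 155 and 176 CPM in arterial-like cells of the 4 libraries (control diet 1 and 2, PLX5622 diet 1 and 2), 68.2, 90.0, 87.7 and 119 CPM in capillary-like cells and 51.5, 58.9, 72.5 and 93.8 CPM in venous-like cells. Arterial-like cells exceeded capillary-like cells by 0.64 ± 0.05 and venous-like cells fell by 0.46 ± 0.06 on the log2 scale against capillary-like cells (edgeR adjusted p = 1.01e-14 and 1.47e-08). Ifitm3 was 0.65 ± 0.07 higher in arterial-like than in capillary-like cells (edgeR adjusted p = 0.000176), while venous-like against capillary-like cells did not pass (log2 0.05 ± 0.07, edgeR adjusted p = 0.733). That value is taken over both diets. Ifitm3 was lower in venous-like than in capillary-like cells of both controls and higher in both PLX5622 libraries. Oas1a, which makes the oligoadenylates that activate RNase L, followed the order of Irf7 (log2 0.81 ± 0.10 and -0.60 ± 0.13). Rsad2 had the largest deficit in venous-like cells (log2 -0.83 ± 0.09, edgeR adjusted p = 1.85e-05), with 71.1, 68.3, 87.2 and 90.4 CPM there and 160, 123, 113 and 160 CPM in capillary-like cells.

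Other members did not follow this order. Isg15 and Bst2 were lower in venous-like than in capillary-like cells (log2 -0.28 ± 0.04 and -0.23 ± 0.04) but did not pass between arterial-like and capillary-like cells (0.09 ± 0.04 and 0.01 ± 0.04). Ifi27l2a was higher in arterial-like than in capillary-like cells (log2 1.25 ± 0.29, edgeR adjusted p = 0.019), a call that was lost without control diet 1 (adjusted p = 0.064) or without PLX5622 diet 1 (adjusted p = 0.113). Irf9, Sp100, Ube2l6, Eif2ak2, Ddx58 and Rtp4 passed in no pair of zones. In all 4 libraries, 22 of 30 members were higher in arterial-like than in capillary-like cells, a count that was not taken over all genes. Depth differed between zones, with medians of 5817 UMIs in arterial-like, 4493 in capillary-like and 8318 in venous-like cells, and its part in these differences was not tested.

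Members were called in each zone. On PLX5622, 3 members were higher in arterial-like cells (Ifi27l2a, Ifit1 and Isg15, beside 0.377% higher and 0.0943% lower of all genes), 4 in capillary-like cells (Bst2, Ifi44, Isg15 and Stat2, beside 0.957% and 0.483%) and 11 in venous-like cells (Bst2, Ifi44, Ifit1, Ifit3, Ifit3b, Ifitm3, Irf7, Isg15, Oasl2, Usp18 and Xaf1, beside 1.01% and 0.394%), and none was lower in any zone. Isg15 was the 1 gene called in each of the 3 zones, though in arterial-like cells not by DESeq2, without control diet 1, without PLX5622 diet 2 or without the top 5% of cells, and in capillary-like cells not without PLX5622 diet 2 (edgeR adjusted p = 0.235). Both PLX5622 libraries were above both controls for 17, 19 and 23 members, beside 14.8%, 14.9% and 17.4% of genes. The median log2 fold change of the members was 0.29, 0.35 and 0.41 in that order, beside -0.00089, 0.0050 and 0.0018 for all genes tested. Without PLX5622 diet 2 the median in capillary-like cells was 0.18. When single libraries were left out, the counts ranged from 1 to 5 in arterial-like, from 1 to 14 in capillary-like and from 5 to 12 in venous-like cells. The lowest counts in capillary-like and venous-like cells were those without PLX5622 diet 2, and the 14 was without control diet 2. In arterial-like cells 1 was called without control diet 1, without control diet 2 or without PLX5622 diet 2, and 5 without PLX5622 diet 1.

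In venous-like cells Isg15 was at 160 and 188 CPM in the controls and 271 and 307 CPM on PLX5622 (log2 0.73 ± 0.11, edgeR adjusted p = 7.5e-06). Ifit1 was at 124 and 119 CPM and then 185 and 195 CPM (log2 0.68 ± 0.11, edgeR adjusted p = 2.48e-05). Ifitm3 was at 801 and 912 CPM and then 1338 and 1319 CPM (log2 0.65 ± 0.12, edgeR adjusted p = 0.000437). For these genes the PLX5622 libraries lay close together and apart from the controls.

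The venous-like class consists of 2 clusters whose shares moved with the diet. The smaller one, led by Ackr1, Lrg1, Lcn2 and Ptgs2, held 5, 16, 26 and 31 cells, or 2.07%, 2.08%, 6.95% and 6.33% of the venous-like cells in the usual order. Ifitm3 was at 2244, 2139, 3207 and 2951 CPM in it and at 759, 879, 1203 and 1187 CPM in the larger cluster. The level was thus higher in the smaller cluster in every library. With the larger cluster alone, an alternative chosen after seeing the data, 10 members were called higher on PLX5622, all of them among the 11, and Ifi44 did not pass (edgeR adjusted p = 0.0533). The log2 fold change of Ifitm3 was then 0.56 and that of Isg15 0.73.

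Ifit3 was at 65.7 and 78.9 CPM in venous-like cells of the controls and at 103 and 137 CPM on PLX5622 (log2 0.73 ± 0.13, edgeR adjusted p = 0.000363). Oasl2, a relative of the oligoadenylate synthetases, was at 64.8 and 73.1 CPM and then 96.9 and 114 CPM (log2 0.61 ± 0.12, edgeR adjusted p = 0.00151). In the capillary-like cells the same gene was at 81.2, 69.5, 80.4 and 93.4 CPM, with overlapping groups. Rsad2 was higher in both PLX5622 libraries in venous-like cells, unlike in the other zones, but did not pass (log2 0.38 ± 0.12, edgeR adjusted p = 0.129).

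Ifi27l2a was called in arterial-like cells, where it was at 50.9 and 36.7 CPM in the controls and 73.5 and 111 CPM on PLX5622 (log2 1.19 ± 0.17, edgeR adjusted p = 6.07e-05). Without control diet 2 this call was lost (edgeR adjusted p = 0.129). In venous-like cells it was at 15.2, 19.8, 56.0 and 124 CPM, the largest log2 fold change of any member in any zone (2.34 ± 0.62), and did not pass (edgeR adjusted p = 0.545). It was called there by DESeq2, with the replicate block, and when either PLX5622 library was left out. The PLX5622 libraries were again far apart. Stat2, a subunit of the complex that carries the signal to the nucleus, was called in capillary-like cells, at 51.2 and 42.5 CPM against 58.4 and 61.2 CPM (log2 0.42 ± 0.11, edgeR adjusted p = 0.0394). This call was lost in DESeq2, with library totals, with a limit of 5% mitochondrial UMIs, without the top 1% or 5% of cells and without any 1 library other than control diet 1 (adjusted p from 0.0579 to 0.784).

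**Figure D2:**
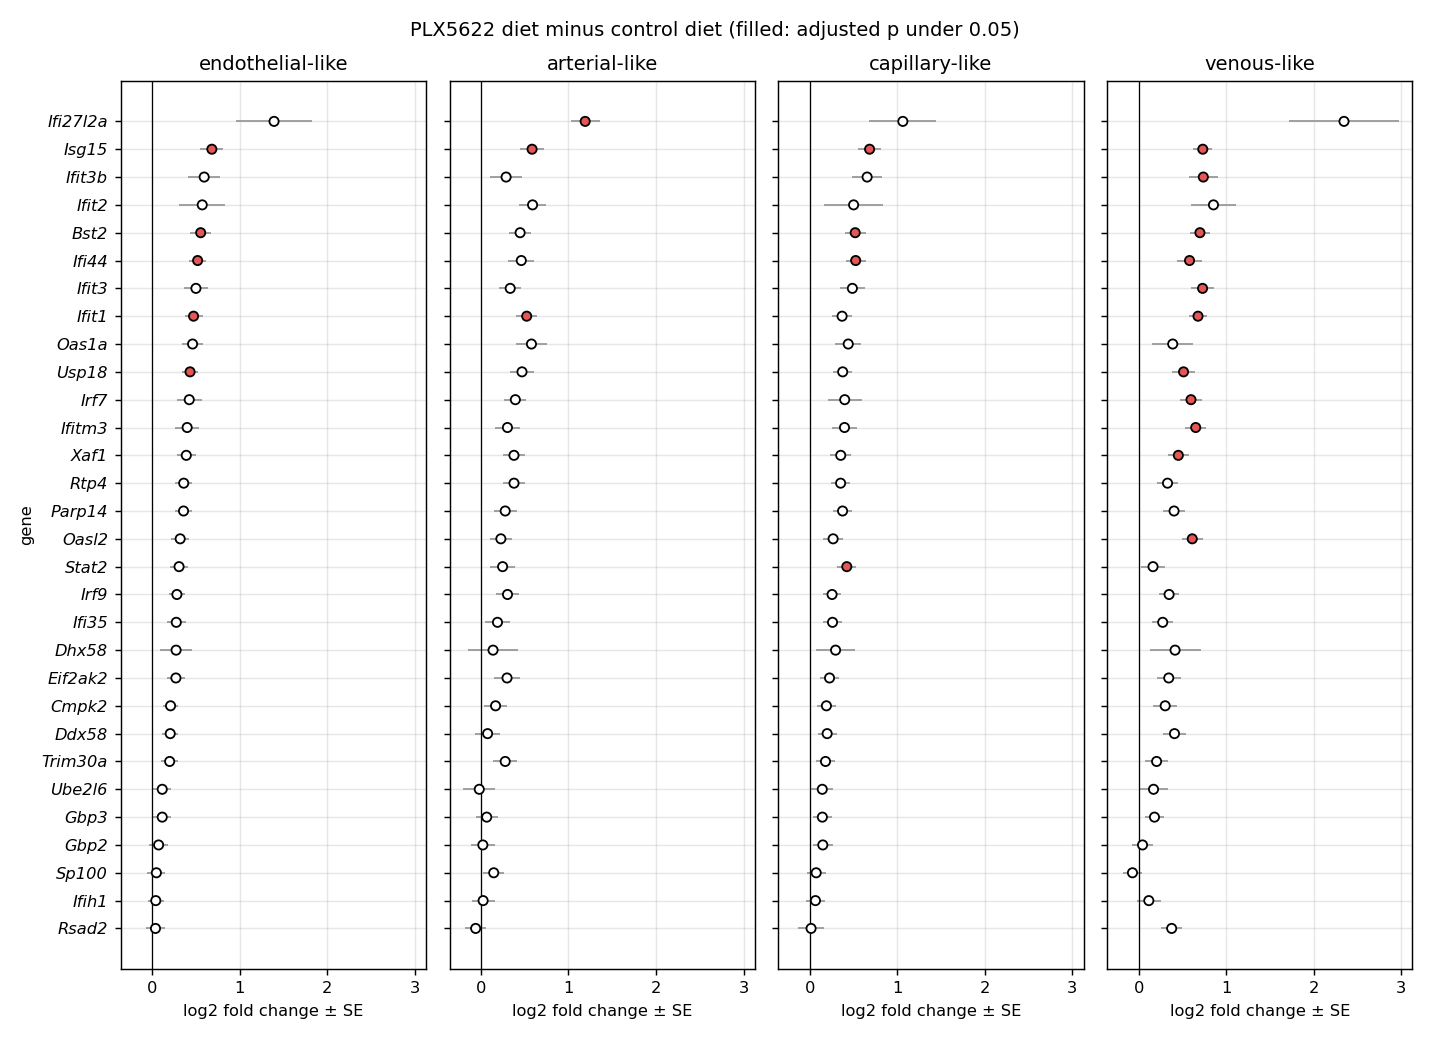
Log2 fold change on PLX5622 against control diet (x axis, bars are SE) of the 30 members (y axis) in all endothelial-like cells and in each zone, with filled points for adjusted p under 0.05. Points lie to the right of 0 for 30, 28, 30 and 29 members, and the venous-like panel has 11 filled points.

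A count of calls in 1 zone and not in another is no test of a difference, so the zone by diet terms were tested in 1 model of 12 zone sums with the library as a block. For Ifitm3 the diet difference was larger in venous-like than in capillary-like cells by 0.27 ± 0.05 on the log2 scale (edgeR adjusted p = 0.00677, with 0.0694% of 11522 genes called higher and 0.026% lower) and larger than in arterial-like cells by 0.35 ± 0.06 (edgeR adjusted p = 5.3e-05, with 0.139% higher and 0.174% lower). No other member passed either term, and none passed for arterial-like against capillary-like cells (0 by edgeR and 0 by DESeq2, beside 0.104% and 0.113% of genes called higher and lower; at an unadjusted p under 0.05, 1 was higher and 1 lower, beside 2.75% and 2.26% of genes). The venous-like minus capillary-like term was above 0 for 24 of 30 members, with a median of 0.11, beside 49.1% of all genes and a median of -0.0038. The next member by p was Ifit1 (0.32 ± 0.09, edgeR adjusted p = 0.175). For Ifi27l2a the term was 1.29 ± 0.32 (edgeR adjusted p = 0.46), and it passed with no filter on low counts and on leaving out either library numbered 1.

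The Ifitm3 term against capillary-like cells ranged from 0.20 to 0.31 when single libraries were left out. It did not pass without control diet 2 (edgeR adjusted p = 0.552), without PLX5622 diet 1 (0.392), in DESeq2 (0.382) or with a limit of 5% mitochondrial UMIs (0.101). With the larger venous-like cluster alone it was 0.18 and did not pass (edgeR adjusted p = 0.526). Against arterial-like cells the Ifitm3 term was 0.27 with that cluster alone (edgeR adjusted p = 0.00676), and it passed in each alternative run but that without control diet 2 (0.26, edgeR adjusted p = 0.102).

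Mural cells, the pericytes and smooth muscle cells that wrap vessels, carried lower levels. They are not the target of a CD31 sort, so those measured here are the ones that passed it. In pericyte-like cells 13 of 29 tested members were lower than in endothelial-like cells of the same libraries and 0 higher (beside 8.51% lower and 13.2% higher of 8919 genes), and in smooth muscle-like cells 28 of 29 were lower (28.2%). The median log2 difference was -0.46 in pericyte-like and -2.73 in smooth muscle-like cells, beside 0.0034 and -0.03 over all genes. Without PLX5622 diet 2, 7 members were called lower in pericyte-like cells, and 10 to 17 without another library. Dhx58 was below the count filter in this comparison. All 30 members were lower in smooth muscle-like than in endothelial-like cells in each library, a count that was not taken over all genes.

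In smooth muscle-like cells, Isg15 was at 50.01, 57.9, 74.3 and 35.0 CPM and Usp18 at 2.94, 2.41, 2.40 and 0 CPM (1, 2, 1 and 0 UMIs). Ifitm3 kept a higher level there, with 480, 482, 482 and 366 CPM (log2 -1.26 ± 0.10 against endothelial-like cells, edgeR adjusted p = 1.25e-10). Ube2l6 was the 1 tested member that did not pass (log2 -0.57 ± 0.26). The members' sum was 809, 1033, 927 and 690 CPM in smooth muscle-like cells and 2650, 2812, 3090 and 3083 CPM in pericyte-like cells.

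The pericyte-like class consists of 2 clusters that differ in endothelial RNA. A cluster of 146 cells had 18699 CPM of the 8 endothelial markers, near the 19888 CPM of endothelial-like cells, and a member sum of 3453 CPM. The other, of 154 cells, had 8418 CPM of endothelial markers, 20475 CPM of pericyte markers and a member sum of 2374 CPM. With the second cluster alone, an alternative chosen after seeing the data, 18 members were lower than in endothelial-like cells, including all 13. The endothelial RNA in the class moves with its member level, and its part in that level was not tested. The first cluster carried markers of both classes and was kept, with 5076 CPM of pericyte markers beside 224 CPM in endothelial-like cells. No doublet caller was run.

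No member passed a diet test in mural cells: 0 of 28 tested in pericyte-like and 0 of 7 in smooth muscle-like cells by edgeR, and no gene of the whole table was called in either (0% of 6757 and 0% of 6389). DESeq2 called none of 30 members in either class. At an unadjusted p under 0.05, 3 members were higher and 1 lower in pericyte-like cells (3.18% and 2.84% of genes), and 0 higher and 1 lower in smooth muscle-like cells (2.13% and 2.39%). With the pericyte-like cluster of less endothelial RNA alone, 0 of 19 tested were called. Isg15 was at 113 and 160 CPM and then 181 and 211 CPM in pericyte-like cells (28 to 128 UMIs). Its log2 fold change was 0.49 ± 0.21 there (edgeR adjusted p = 0.811), with a standard error above the 0.13 of endothelial-like cells. Both PLX5622 libraries were above both controls for 6 members and below for 6 in pericyte-like cells (15.1% and 20.3% of genes), and above for 1 and below for 9 in smooth muscle-like cells (13.8% and 18.8%).

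**Figure D3:**
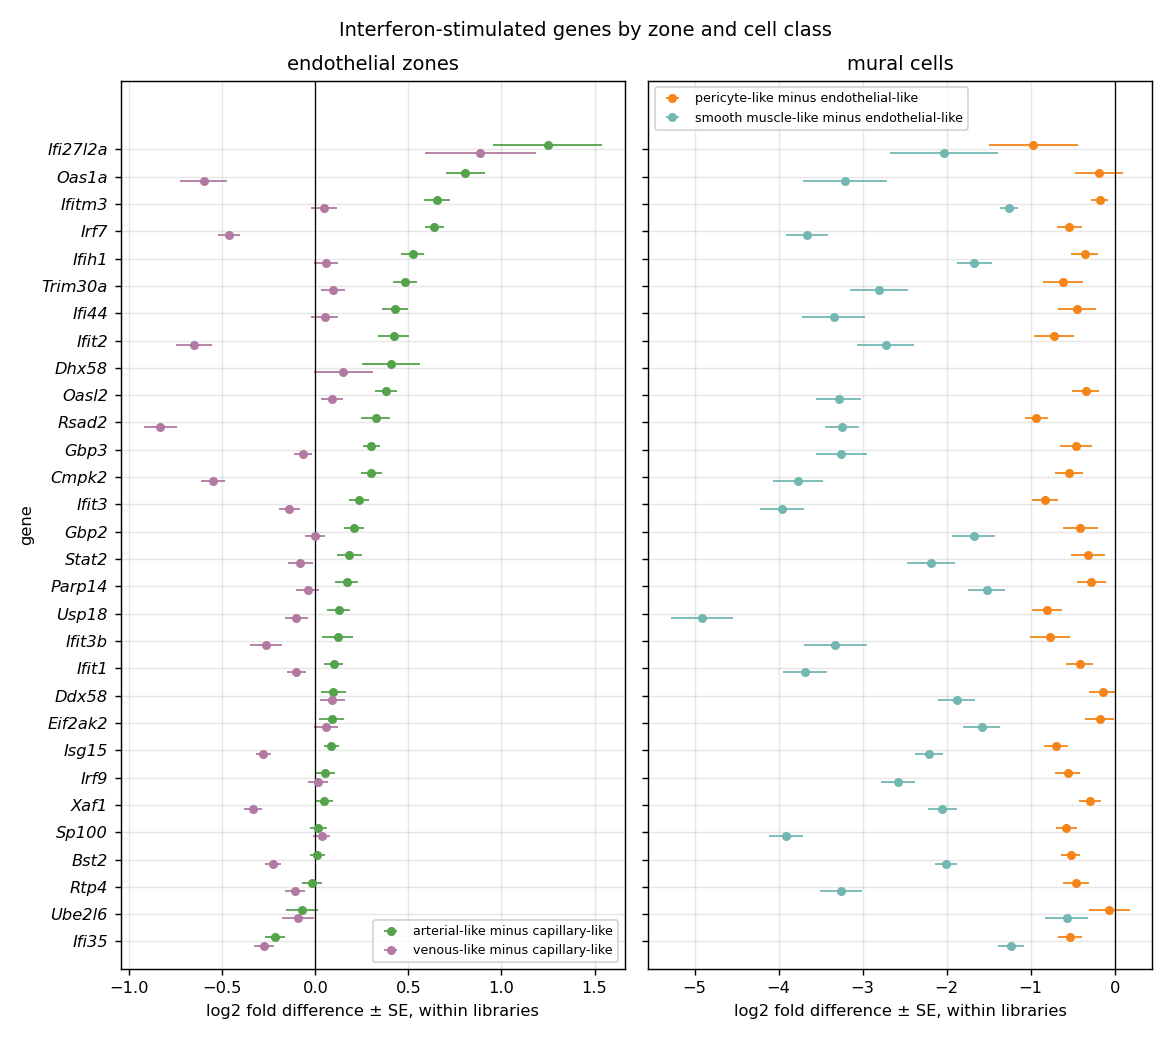
Log2 differences (x axis, bars are SE) of the 30 members (y axis) between endothelial zones on the left and between mural and endothelial-like cells on the right, from models with the library as a block. Arterial-like points lie right of 0 for 27 members, venous-like points for 12, and all tested mural points lie left of 0.

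Whether a few cells or all cells carried the signal was asked with 10 strongly inducible members (Ifit1, Ifit2, Ifit3, Ifit3b, Isg15, Irf7, Rsad2, Usp18, Oasl2 and Ifi44) after every cell had been thinned to 1000 UMIs. The share of endothelial-like cells with a UMI of at least 1 of them was 44.8% (exact 95% interval 42.3 to 47.4) and 44.1% (42.6 to 45.5) in the controls and 48.7% (47.0 to 50.3) and 57.0% (55.2 to 58.7) on PLX5622. The share with at least 4 of them was 3.02% (2.21 to 4.02), 2.92% (2.46 to 3.43), 4.07% (3.44 to 4.78) and 4.89% (4.16 to 5.70). Intervals cover counting error only, and a cell with at least 4 is the upper end of a range, not a cell type. Both shares were higher in both PLX5622 libraries, with a ratio of mean shares of 1.51 for at least 4 genes. With 2 libraries per diet no permutation test can pass 0.05, so none is given.

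Smooth muscle-like cells, at median depths of 7006 to 10593 UMIs, had at least 1 of the 10 genes in 0 of 36, 7 of 70, 13 of 61 and 2 of 60 cells after the same thinning. None had 4, which allows shares of up to 8.33%, 4.29%, 4.92% and 5%. RNA free in the suspension, estimated from barcodes under 100 UMIs, came to 0.464%, 0.970%, 0.669% and 0.701% of the endothelial sums. For single members the largest estimate was 1.16% of the UMIs. These values rest on erythroid, oligodendrocyte and neuron markers, after clusters with erythroid markers had been left out, so they are no firm upper limit. Without thinning, the shares with at least 4 genes were 26.9%, 31.7%, 25.4% and 44.9%, and PLX5622 diet 1 no longer exceeded the controls. That library has the shallowest cells.

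**Figure D4:**
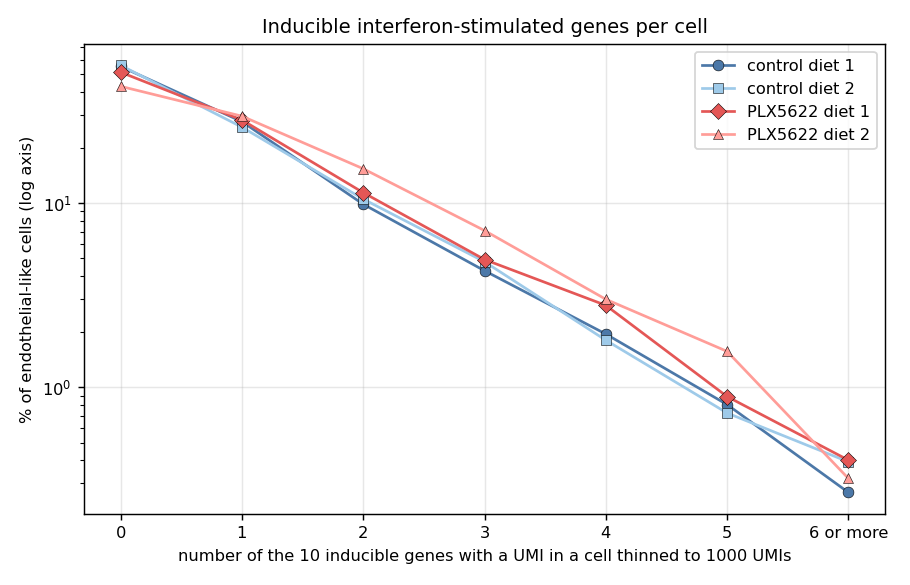
Percentage of endothelial-like cells (log y axis) by number of the 10 inducible genes with a UMI after thinning to 1000 UMIs (x axis), one line per library. The share with none is 55.2%, 55.9%, 51.3% and 43.0%, and the lines fall without a second peak. At a mean of 0.894 to 1.30 UMIs of the 10 genes per thinned cell, they cannot show whether a separate group exists.

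UMIs of the 10 genes were unevenly spread over cells in every library. The 5% of cells with the most held 32.5%, 31.05%, 29.3% and 25.5% of them. These cells were ranked by the same UMIs, at a mean of 0.894, 0.897, 1.05 and 1.30 per thinned cell. Counting error alone raises such a share, and less so at a higher mean, so the lower PLX5622 values do not show a more even spread. Cells with none made up 55.2%, 55.9%, 51.3% and 43.0%, beside 40.9%, 40.8%, 35.0% and 27.3% under a Poisson count of the same mean. The variance of the count per cell was 2.70, 2.44, 2.47 and 2.32 times its mean. Arterial-like cells had at least 4 of the genes in 3.54%, 4.22%, 5.48% and 6.60% of cells, and venous-like cells in 0.826%, 1.82%, 3.74% and 3.47%. The PLX5622 libraries were the higher ones in both zones.

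The cells with at least 4 of the genes held 22.2%, 19.7%, 23.3% and 23.3% of the inducible UMIs. With those cells removed, the level of the 10 genes was 717 and 741 CPM in the controls and 839 and 1047 CPM on PLX5622, beside 894, 897, 1048 and 1298 CPM with them. Without the 1% of cells of each library richest in these genes, 5 members were called higher in endothelial-like cells, the same 5 as with them. Without the richest 5%, an alternative chosen after seeing the data, 6 were called, the same 5 and Ifit3b. In each of these removals the cells were picked by UMIs of the 10 genes themselves, at few UMIs per cell. What remains therefore cannot show whether few or all cells carry the difference.

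Cells with several inducible genes also had more of the other members. Zones were pooled in these groups, here and below, and the part of zone in the pattern was not tested. The other 20 members together were at 1825, 2010, 2294 and 2388 CPM in cells with none of the 10 genes and at 4822, 5624, 5683 and 5346 CPM in cells with at least 4. The level in cells with none was higher in both PLX5622 libraries than in both controls. None, here and below, means that no UMI was left after thinning. Without thinning, 79.6%, 81.8%, 78.5% and 89.3% of endothelial-like cells had at least 1 of the 10 genes. The grouping therefore does not separate cells that carry these genes from cells that do not. Cells with at least 4 had median depths before thinning of 4629, 5268, 3674 and 5640 UMIs, against 5254, 5487, 3729 and 5846 in cells with none.

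Isg15 was higher in each library the more other inducible genes a cell had, from 110, 137, 176 and 210 CPM with none of them to 954, 816, 965 and 908 CPM with 3 or more. In cells with none of them left after thinning the PLX5622 libraries were above the controls, and in cells with 3 or more the diets overlapped. Bst2, which was not used to group the cells, went from 143, 183, 230 and 287 CPM to 312, 424, 478 and 461 CPM. Ifitm3 went from 797, 930, 1089 and 1048 CPM to 1761, 1962, 2153 and 1952 CPM. Sp100, whose diet groups overlapped, also went from 123, 118, 116 and 122 CPM to 229, 247, 255 and 243 CPM.

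Ifi27l2a had another pattern in PLX5622 diet 2, where it was at 71.2 CPM in cells with none of the inducible genes and at 82.7 CPM in cells with 3 or more. In control diet 2 it was at 18.9 and 61.7 CPM. After thinning it had a UMI in 1.34%, 1.96%, 2.98% and 5.11% of cells, and its variance was 2.86, 1.69, 1.62 and 1.92 times its mean. Ifitm3 had a UMI in 54.4%, 59.3%, 65.9% and 66.9% of the thinned cells and Isg15 in 15.8%, 18.3%, 21.3% and 25%. For all 3 genes the shares in the PLX5622 libraries were above those in the controls.

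**Figure D5:**
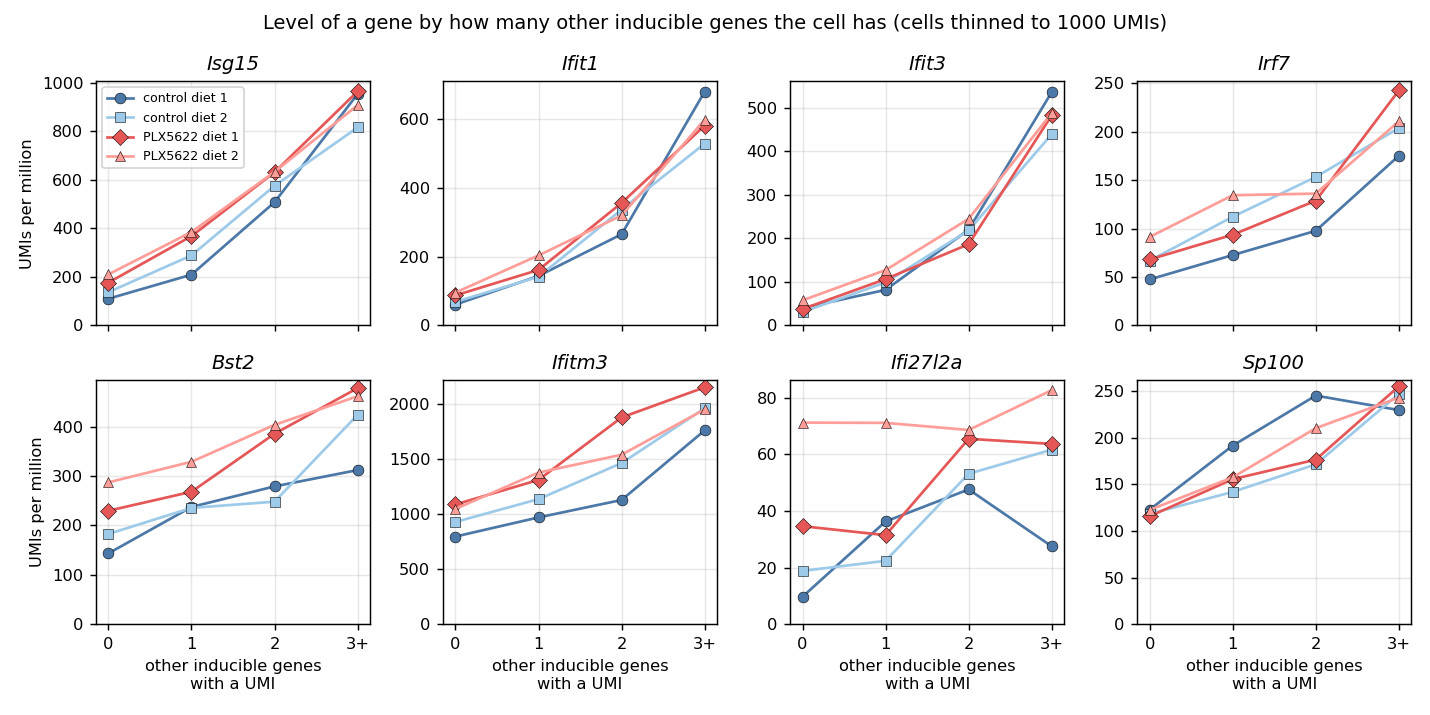
Level of 8 members in CPM (y axis) in endothelial-like cells grouped by how many other inducible genes had a UMI after thinning to 1000 UMIs (x axis), one line per library. Isg15 goes from between 110 and 210 with none to between 816 and 965 with 3 or more, while Ifi27l2a in PLX5622 diet 2 stays between 68.6 and 82.7.

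Upstream in the pathway, the 21 interferon ligand genes had 0, 2, 0 and 2 UMIs over all barcodes of the 4 libraries, at or under the limit of 3 counts (0.268, 0.0777, 0.158 and 0.111 CPM). The receptor subunits were present in endothelial-like cells, Ifnar1 at 232, 202, 225 and 217 CPM and Ifnar2 at 319, 326, 317 and 344 CPM, with overlapping diet groups. Ifngr1, of the interferon gamma receptor, was at 54.7, 51.2, 48.4 and 46.5 CPM. Its partner Ifngr2 was at 13.3, 11.4, 15.8 and 18.96 CPM, which did not pass over all endothelial-like cells (edgeR adjusted p = 0.0591) and passed in capillary-like cells (log2 0.67 ± 0.17, edgeR adjusted p = 0.0273).

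In endothelial-like cells, 0 of 8 tested receptors and kinases, 0 of 7 transcription factors, 0 of 11 genes of nucleic acid sensing and 0 of 11 negative regulators passed in either direction by edgeR, beside the 0.777% higher and 0.298% lower of all genes. Their median log2 fold changes were 0.07, 0.08, 0.11 and 0.05. Of 50 further interferon-stimulated genes tested 1 was higher, the oligoadenylate synthetase Oas2, at 5.99, 5.20, 10.1 and 8.74 CPM (log2 0.81 ± 0.17, edgeR adjusted p = 0.0284). Of 19 genes that interferon gamma favours 1 was higher, the chemokine Cxcl10, at 2.00, 1.95, 3.96 and 4.03 CPM (log2 1.05 ± 0.25, edgeR adjusted p = 0.0485). Both lists had a median log2 fold change of 0.17, below the 0.34 of the members. The list of transcription factors and that of further interferon-stimulated genes overlap.

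In venous-like cells, where 1.01% of all genes were called higher, 4 of 18 tested genes that interferon gamma favours were higher: Cxcl10 (log2 1.498 ± 0.352), the GTPase Irgm1 (0.46 ± 0.13) and the GTPases Tgtp1 (1.23) and Tgtp2 (1.19). Tgtp1 and Tgtp2 are near-identical copies between which reads could be divided, so their separate values are uncertain. Of 41 further interferon-stimulated genes Slfn2, a Schlafen family gene, was higher there (log2 0.74 ± 0.14, edgeR adjusted p = 0.000888). In capillary-like cells, with 0.957% of all genes called higher, 1 of 18 genes that interferon gamma favours was higher, Tgtp1 (0.75). In arterial-like cells, with 0.377% of all genes called higher, 2 of 44 further interferon-stimulated genes were higher, Oas2 (0.80 ± 0.20) and Trim34a (0.68 ± 0.16). Whether these differences differ between zones was tested in the zone by diet terms, and none of these genes passed there. Of the pathway genes 1 passed in such a term, the signalling inhibitor Socs3, whose diet difference was lower in arterial-like than in capillary-like cells (log2 -0.36 ± 0.09, edgeR adjusted p = 0.0375).

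Markers of other cells moved with the diet in part. In the endothelial-like sums, 8 erythroid markers stood at 41.4 and 61.6 CPM in the controls and 76.5 and 89.8 CPM on PLX5622, and 10 pericyte markers at 199.8, 201, 274 and 233 CPM. Their part in the member levels was not tested. The 12 microglia markers summed to 28.2, 25.9, 23.8 and 27.4 CPM. Of these 10 and 9 were detected in the controls and 4 in each PLX5622 library, with Tmem119, C1qa, C1qb, C1qc, Trem2, Aif1 and Fcrls at 0 in both. Monocyte and neutrophil markers (7 genes) summed to 1.76, 0.766, 1.48 and 1.15 CPM, and T, NK and B cell markers (8 genes) to 0.587, 1.76, 0.470 and 3.12 CPM.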

How the data were processed

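Each of the 4 libraries was deposited as a matrix of UMI counts per gene and cell barcode. The submitters' processing notes list Cell Ranger 6.0.1, Seurat 4.0, mm10 and mm39 without their roles, and the deposited file headers name Cell Ranger 4. The build and annotation behind the counts are not given in the sources used here. Cells were filtered as stated, clustered (2000 variable genes, 30 components, 15 neighbours, Leiden resolution 1; endothelial cells again with 20 components and resolution 0.6) and named from markers. Members and pathway genes stayed out of both clusterings, as did 106 genes of cell state in the second. No doublet caller was run. Endothelial subclusters with markers of another class (183 cells with pericyte and 103 with erythroid markers) and other classes were left out, while a pericyte-like cluster of 146 cells with endothelial markers was kept. Clusters of 403 and 26 cells with the 8 endothelial markers were left out as unnamed. Their median depths were 0.285 and 0.268 of their own library's median, and no marker was among their top genes. Count sums were tested with edgeR 4.0.16 in R 4.3.3 (TMM, filterByExpr, robust quasi-likelihood, two-sided, Benjamini-Hochberg over all genes tested). Alternatives were DESeq2 1.42.0, scaling to library totals, no filter, a limit of 5% mitochondrial UMIs, a replicate block, leaving out each library and, chosen after seeing the data, single clusters and no top 5% of cells. The tests were also run on simulated counts with known changes. The diet tests recovered fewer of these in pericyte-like and smooth muscle-like cells than in endothelial-like cells or their zones. Values are given for members called in any comparison, the most abundant others, and those that show the spread between libraries. Promoter sequences are RefSeq windows of GRCm38.p6. Members, lists and rules were chosen with earlier results of these data known.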

Additional observations from a re-analysis of the deposited data

Results flagged for a closer look

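The diet difference of Ifitm3 differed between zones: the venous-like minus capillary-like term was 0.27 and the venous-like minus arterial-like term 0.35 on the log2 scale (edgeR adjusted p = 0.00677 and 5.3e-05). Ifitm3 was at 801 and 912 CPM in venous-like cells of the controls, near the 811 and 980 CPM of their capillary-like cells, and at 1338 and 1319 CPM on PLX5622, above the 1132 and 1162 CPM of capillary-like cells there. With the larger venous-like cluster alone the terms were 0.18 and 0.27 (edgeR adjusted p = 0.526 and 0.00676), so the first did not pass. The arterial-like levels were 1312, 1630, 1814 and 1753 CPM.

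Among the pathway genes, Socs3, a feedback inhibitor of cytokine receptors, had an arterial-like minus capillary-like term of -0.36 ± 0.09 (edgeR adjusted p = 0.0375). Its diet difference was -0.27 ± 0.12 in arterial-like and 0.09 ± 0.11 in capillary-like cells, and neither passed in its own zone.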

How the results depend on the processing

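In endothelial-like cells 13 members were called higher with no filter on low counts, 11 with the replicate block and 0 to 12 with single libraries left out, against 5. In arterial-like cells DESeq2 called 1 and leaving out libraries gave 1 to 5, against 3. In capillary-like cells DESeq2 called 2, no filter 9, the block 15 and leaving out libraries 1 to 14, against 4. In venous-like cells DESeq2 called 6 and leaving out libraries 5 to 12, against 11. The block was no paired analysis by design: same-numbered libraries share only a number, and their deviations correlated at 0.0587 over 12749 genes. The zone by diet count of 1 for venous-like against capillary-like cells was 0 with DESeq2, 2 with no filter, 0 at 5% mitochondrial UMIs, 0 with the larger venous-like cluster only and 0 to 2 without single libraries. Against arterial-like cells it was 2 with no filter and 1 to 2 without single libraries. Members higher in venous-like than in capillary-like cells numbered 0 to 1 without single libraries, against 0. Members lower in pericyte-like cells numbered 23 with no filter and 7 to 17 without single libraries, against 13. The ratio of shares of cells with at least 4 inducible genes was 1.20 unthinned, against 1.51. Signs of diet differences turned in at least 1 alternative for 5 members in endothelial-like, 9 in arterial-like, 5 in capillary-like and 5 in venous-like cells, and for 15 of 28 in pericyte-like and 5 of 7 in smooth muscle-like cells. With single libraries left out, 21 to 30 members were above 0 in arterial-like (28 with all libraries), 26 to 30 in capillary-like (30) and 25 to 30 in venous-like cells (29). In endothelial-like cells the 5 were near 0. With library totals Rsad2 was at -0.0063. With single libraries left out, Rsad2 ranged from -0.14 to 0.19 (-0.063 without control diet 2), Gbp2 from -0.076 to 0.20 (-0.029 without control diet 2), Sp100 from -0.058 to 0.15 (-0.0087 without PLX5622 diet 2), Gbp3 from -0.0020 to 0.23 and Ifih1 from -0.047 to 0.12. The causes were not tested. Shares of all genes called in these alternatives are not given, here or in the sections above. How far the counts are particular to the members is therefore not shown.

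With 2 libraries per diet whose division of mice is not known, animals and libraries cannot be told apart. The mural sums rest on 33 to 100 pericyte-like and 36 to 70 smooth muscle-like cells per library.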
